A study of Mus musculus with 8 samples.

Results

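Accessibility at Entpd1 and Nt5e, the genes of the ectoenzymes CD39 and CD73, was described in 42 of the 79758 sites of an ATAC-seq count table. The sites were chosen by position on the mouse build mm9: 24 had their midpoint in a window of 170 kb on chromosome 19 at Entpd1, and 18 in a window of 110 kb on chromosome 9 at Nt5e. From the first to the last site the Entpd1 set spans chr19:40662494-40811907 and the Nt5e set chr9:88192855-88299198. The rule uses position alone. ATAC-seq uses a transposase that cuts open chromatin and adds sequencing adapters there, so more counts at a site mean more accessible DNA.

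The regulatory T (Treg) cells had been sorted out of spleen and lymph nodes of mixed bone marrow chimeras, mice in which marrow of more than 1 donor develops. Each of the 4 groups had 2 libraries: Pggt1b-deficient eTreg (effector), WT eTreg, Pggt1b-deficient cTreg (central) and WT cTreg cells. All 4 groups came from chimeras. Pggt1b codes for the beta subunit of GGTase-I, an enzyme that attaches a lipid to proteins such as small GTPases. The labels do not give how Pggt1b was deleted, the markers behind the sort gates or the age of the mice. They also do not tell if the 2 libraries of each group had separate chimeras as their source. The p-values therefore reflect spread among these libraries only, some of which may be technical. Without a gene annotation of mm9, no site was assigned to a promoter, exon or intron, and neither the Pggt1b deletion nor Treg marker genes could be checked in these counts.

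The Pggt1b-deficient eTreg libraries were the shallowest, with 1664702 to 2255214 counts, against 7153991 to 14974253 in the other 6. Their median count over the 42 sites was 9 and 12, against 41.5 to 65.5 in the other libraries. Values below are CPM, counts scaled to a common library size with TMM factors, and each is given for replicate 1 and then replicate 2. One count was worth 0.448 to 0.593 CPM in Pggt1b-deficient eTreg libraries and 0.0679 to 0.138 CPM in the others.

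CD39, the product of Entpd1, is a cell surface enzyme that removes phosphate groups from extracellular ATP and ADP and leaves AMP. CD73, the product of Nt5e, turns that AMP into adenosine, which restrains effector T cells through adenosine receptors. Mouse Treg cells are known to carry both enzymes, and this route to adenosine is one of the ways in which they suppress other cells.

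The sequences before the annotated starts are shown because the genes differ there in base composition and motifs. RefSeq lists 2 starts for Entpd1 and 1 for Nt5e, and the 250 bases before each are printed 5′ to 3′ on the plus strand of GRCm38.p6, a build other than that of the counts, so they could not be set against the sites. They lie at chr19:40612116-40612365 for the first Entpd1 start, chr19:40659520-40659769 for the second and chr9:88327359-88327608 for Nt5e. Capitals mark CGTCA, the reverse complement of TGACG, the shorter form of the CRE motif, in the Entpd1 sequences, and CCGCCC, the reverse complement of the SP/KLF motif GGGCGG, in the Nt5e sequence.
Entpd1 start 1: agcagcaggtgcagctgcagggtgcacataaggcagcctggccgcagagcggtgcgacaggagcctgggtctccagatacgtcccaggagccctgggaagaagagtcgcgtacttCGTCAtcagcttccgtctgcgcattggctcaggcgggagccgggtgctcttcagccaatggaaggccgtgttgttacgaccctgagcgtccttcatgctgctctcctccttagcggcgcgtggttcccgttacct
Entpd1 start 2: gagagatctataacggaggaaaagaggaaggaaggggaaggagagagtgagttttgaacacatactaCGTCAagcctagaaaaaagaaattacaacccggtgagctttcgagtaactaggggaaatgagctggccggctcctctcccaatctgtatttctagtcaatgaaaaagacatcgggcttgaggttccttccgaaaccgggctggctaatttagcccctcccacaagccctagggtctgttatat
Nt5e start: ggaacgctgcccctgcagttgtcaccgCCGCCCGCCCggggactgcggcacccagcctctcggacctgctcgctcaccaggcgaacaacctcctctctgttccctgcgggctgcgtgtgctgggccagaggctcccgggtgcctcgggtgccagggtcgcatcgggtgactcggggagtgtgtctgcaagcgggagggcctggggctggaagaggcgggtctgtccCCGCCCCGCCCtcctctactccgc

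GC content was 62.4% and 47.2% before the first and second Entpd1 starts and 72% before the Nt5e start, against a median of 52.4% over 32851 RefSeq promoter sequences of the same length. CpG dinucleotides numbered 18, 8 and 21 in the same order, against a median of 6. The short CRE form was found once before each Entpd1 start, at 135 and 183 bases before it, and in 17.8% of all these sequences. The SP/KLF motif was found 4 times before the Nt5e start, as 2 overlapping pairs, and in 32.7% of all sequences. The other 8 motifs searched on both strands had no match in the 3 sequences: AP-1 (TGANTCA), CRE (TGACGTCA), ETS (CCGGAAGT and CAGGAAGT), RUNX (TGTGGTT), forkhead (TGTTTAC), STAT and E-box (CACGTG).

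In both windows most of the signal came from a few sites. Sites are numbered along each chromosome from 1 to 24 for Entpd1 and from 1 to 18 for Nt5e. The strongest Entpd1 site, site 5 (chr19:40686459-40687014), is 555 bp wide and held 30.2% of the window's mean CPM; together with sites 2 and 22 it held 51.1%. In the Nt5e window 3 sites held 71.6%: site 8 (chr9:88222134-88222963), the strongest and at 829 bp the widest, site 17 (chr9:88274836-88275259) and site 9 (chr9:88223964-88224518). The remaining sites were mostly narrow and weak. Median width was 142.5 bp in the Entpd1 window and 109.5 bp in the Nt5e window, against 104 bp over the whole table. After a filter on low counts, 22 of 24 Entpd1 sites and 17 of 18 Nt5e sites were tested. The 3 untested sites, Entpd1 sites 18 and 20 and Nt5e site 6, had at most 13 counts in any library.

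Summed over its 18 sites, the Nt5e window was lower in Pggt1b-deficient than in WT cells of both subsets and higher in eTreg than in cTreg cells of both genotypes. The sum was 253 and 223 CPM in Pggt1b-deficient eTreg libraries, against 260 and 264 CPM in WT eTreg libraries. In cTreg cells it was 201 and 190 CPM in Pggt1b-deficient libraries and 233 and 243 CPM in WT libraries. None of these pairs of groups overlapped, but the mean differences were small: -9.30% for Pggt1b-deficient against WT in eTreg, -17.8% in cTreg, 21.6% for eTreg against cTreg in Pggt1b-deficient and 10.2% in WT cells. Much of this pattern came from site 11, described below. Its group means were 36.7 (WT eTreg), 14.3 (WT cTreg), 18.0 (Pggt1b-deficient eTreg) and 7.83 CPM (Pggt1b-deficient cTreg). It made up most of the mean difference between the WT subsets and between the eTreg genotypes, and a smaller part of the other differences. For the WT subsets and the eTreg genotypes the sum is therefore not a shift of the whole window. The Entpd1 sum followed another order. It was 382 and 321 CPM in Pggt1b-deficient eTreg, 271 and 284 CPM in WT eTreg, 355 and 347 CPM in Pggt1b-deficient cTreg and 329 and 349 CPM in WT cTreg libraries. WT eTreg libraries were thus below those of the other 3 groups, which overlapped each other. With 2 libraries a group an exact permutation test cannot go below p = 0.33, so the sums are a description. A change in a sum cannot tell a site open in fewer cells from a site less open in each cell.

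**Figure D1:**
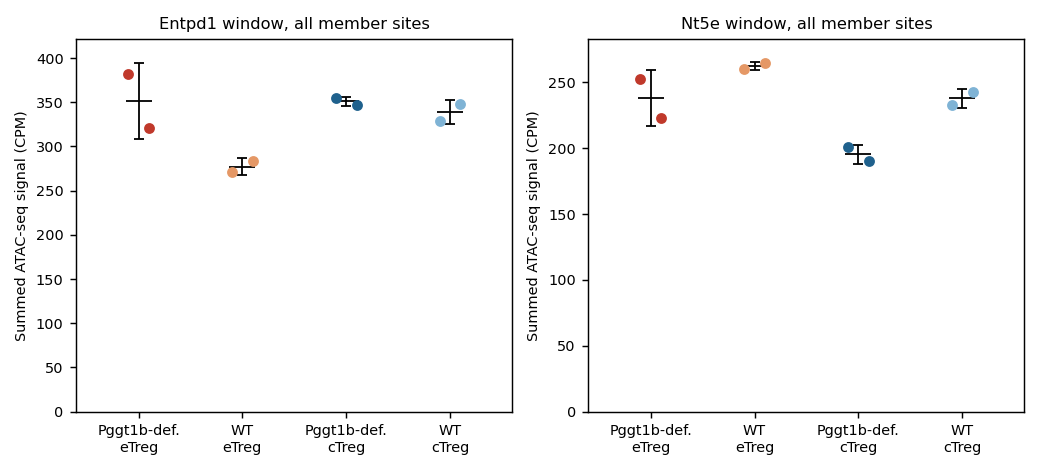
Summed CPM of all member sites of the Entpd1 window (left) and the Nt5e window (right) in each library, by group, with the group mean and SD (bars, n = 2). In the Entpd1 panel the WT eTreg libraries, at 271 and 284 CPM, lie below all others. In the Nt5e panel the Pggt1b-deficient cTreg libraries, at 201 and 190 CPM, are lowest.

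Comparing the Pggt1b-deficient subsets, 3 of the 17 tested Nt5e sites were higher in eTreg cells and 1 was lower (edgeR, adjusted p under 0.05). Of all 75352 tested sites 9.12% were called in that comparison, 4.59% higher and 4.52% lower. In the WT 1 site was higher and 3 were lower, where 28.7% of all tested sites were called, 13.8% higher and 14.9% lower. For Pggt1b-deficient against WT, the same site was the one call in each subset, lower both times. Across all tested sites 11.1% were called in eTreg cells, 4.66% higher and 6.43% lower, and 2.21% in cTreg cells, 0.53% higher and 1.69% lower. The balance in eTreg cells turned with the tool: 42.0% of these calls were higher, against 52.7% with DESeq2 and 55.9% with limma-voom. In cTreg cells 23.9% were higher, against 34.2% without the low-count filter, 40.7% with limma-voom and 43.6% with only the compared libraries. The median log2 fold change over the 17 sites was -0.22 in eTreg and -0.33 in cTreg cells, against -0.09 and -0.03 over all tested sites. The eTreg median takes in sites 4, 10 and 13, which had no count in Pggt1b-deficient eTreg libraries. Their fitted values were the lowest of the 17, so that median would be higher without them. Single libraries set some of the numbers of calls. Between the Pggt1b-deficient subsets no site was higher without Pggt1b-deficient eTreg replicate 1 or Pggt1b-deficient cTreg replicate 1, and 2 were higher without Pggt1b-deficient eTreg replicate 2. Between the WT subsets 4 were higher and 3 lower without either or both of the Pggt1b-deficient eTreg libraries, which do not enter that contrast but share its estimate of the spread.

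The Nt5e site called between genotypes, site 11, was called in all 4 pairwise comparisons, the sole one of the 39 tested sites of both windows. These comparisons share groups, and the share of all tested sites called in all 4 is not given here. Site 11 is 449 bp wide (chr9:88227190-88227639) and lies 4.87 kb from the strongest site, midpoint to midpoint. It had 24.2 and 11.9 CPM in Pggt1b-deficient eTreg libraries and 36.3 and 37.1 CPM in WT eTreg libraries. In cTreg cells it had 6.28 and 9.38 CPM in Pggt1b-deficient libraries and 15.8 and 12.8 CPM in WT libraries. The WT eTreg libraries were highest and the Pggt1b-deficient cTreg libraries lowest, and in each pairwise comparison the 2 groups did not overlap. The second Pggt1b-deficient eTreg library lay below both WT cTreg libraries and the first above them.

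At site 11 accessibility was higher in eTreg than in cTreg cells, by a log2 fold change of 1.27 ± 0.28 (SE) in Pggt1b-deficient cells (edgeR adjusted p = 0.00254) and by 1.36 ± 0.17 in WT cells (edgeR adjusted p = 6.09e-08). It was lower without Pggt1b, with a log2 fold change of -0.97 ± 0.23 in eTreg cells (edgeR adjusted p = 0.00399) and -0.88 ± 0.21 in cTreg cells (edgeR adjusted p = 0.0173). The effect of Pggt1b loss did not differ detectably between the subsets: the interaction was -0.09 ± 0.33 on the log2 scale, with a 95% interval of -0.75 to 0.57 (edgeR adjusted p = 0.936). The eTreg against cTreg call in the WT held under every alternative tried. The other 3 calls, which involve Pggt1b-deficient cells, were each lost without certain single libraries. In eTreg cells the difference between genotypes was -0.60 (adjusted p = 0.104) without Pggt1b-deficient eTreg replicate 2. In cTreg cells it was -0.72 (adjusted p = 0.319) without WT cTreg replicate 1 and -0.60 (adjusted p = 0.397) without Pggt1b-deficient cTreg replicate 1. The subset difference in Pggt1b-deficient cells was 0.98 (adjusted p = 0.0562) without Pggt1b-deficient cTreg replicate 1 and 0.60 (adjusted p = 0.391) without Pggt1b-deficient eTreg replicate 1.

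At the strongest Nt5e sites the differences were smaller than at site 11. Site 8 had 57.4 and 63.4 CPM in Pggt1b-deficient eTreg, 72.8 and 67.3 CPM in WT eTreg, 48.9 and 45.5 CPM in Pggt1b-deficient cTreg and 56.8 and 62.1 CPM in WT cTreg libraries. The group means had the same order as at site 11, with the Pggt1b-deficient eTreg and WT cTreg libraries overlapping at both sites, and no comparison was called. Its log2 fold change was -0.22 ± 0.13 for Pggt1b-deficient against WT in eTreg and -0.33 ± 0.10 in cTreg cells (edgeR adjusted p = 0.282 and 0.0891). Between subsets it was 0.35 ± 0.13 in Pggt1b-deficient and 0.24 ± 0.10 in WT cells (edgeR adjusted p = 0.0941 and 0.0669). These values lay close to the threshold: with RLE scaling the WT subset difference had an adjusted p of 0.0436, and with limma-voom and group weights the cTreg difference between genotypes had 0.0438. Site 9, next to it, had group means between 46.4 and 53.4 CPM and was called in no comparison.

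Nt5e site 17 stood higher in eTreg than in cTreg cells when Pggt1b was missing. It had 81.6 and 51.0 CPM in Pggt1b-deficient eTreg libraries, against 40.7 and 45.4 CPM in Pggt1b-deficient cTreg libraries. The groups did not overlap, although the eTreg libraries lay far apart, and the log2 fold change was 0.66 ± 0.15 (edgeR adjusted p = 0.00273). WT libraries had 64.3 and 63.7 CPM in eTreg and 53.5 and 55.6 CPM in cTreg cells, a difference that was not called (0.23 ± 0.11, edgeR adjusted p = 0.117). For Pggt1b-deficient against WT the log2 fold change was 0.08 ± 0.14 in eTreg and -0.34 ± 0.12 in cTreg cells. Neither was called (edgeR adjusted p = 0.771 and 0.132). The test of whether the subset difference differed between the genotypes gave an interaction of 0.42 ± 0.18 (edgeR adjusted p = 0.251). Without Pggt1b-deficient eTreg replicate 1 the subset difference was 0.23 (adjusted p = 0.470), and without Pggt1b-deficient cTreg replicate 1 it was 0.56 (adjusted p = 0.0521).

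Site 18 (chr9:88299061-88299198), at the far end of the Nt5e window and 76.6 kb from the strongest site, ran the other way. It had 5.38 and 2.37 CPM in Pggt1b-deficient eTreg libraries, against 14.8 and 8.69 CPM in Pggt1b-deficient cTreg libraries. WT eTreg libraries had 1.30 and 1.97 CPM, against 8.86 and 10.1 CPM in WT cTreg libraries. All 4 eTreg libraries lay below all 4 cTreg libraries. The log2 fold change of eTreg against cTreg was -1.54 ± 0.43 in Pggt1b-deficient cells (edgeR adjusted p = 0.0163) and -2.49 ± 0.32 in WT cells (edgeR adjusted p = 8.86e-08), the largest called change of a member site between the WT subsets. The WT value held under every alternative. The Pggt1b-deficient value was -1.11 (adjusted p = 0.203) without Pggt1b-deficient cTreg replicate 1 and -1.15 (adjusted p = 0.114) without Pggt1b-deficient eTreg replicate 2. With limma-voom and group weights it was -1.53 (adjusted p = 0.123), and with only the compared libraries -1.50 (adjusted p = 0.0680). It lies close to the end of the window, so which gene it belongs to is not known here; in RefSeq the protein-coding neighbours of Nt5e are Tbx18 and Snx14.

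Nt5e sites 15 and 16 were also lower in WT eTreg than in WT cTreg cells. Site 15 (chr9:88252029-88252308) had 7.79 and 6.99 CPM in WT eTreg libraries and 13.3 and 13.3 CPM in WT cTreg libraries, or -0.85 ± 0.22 on the log2 scale (edgeR adjusted p = 0.00333, but 0.0599 without WT eTreg replicate 2). Site 16 (chr9:88261235-88261387) had 2.41 and 5.02 CPM in WT eTreg libraries and 6.28 and 7.29 CPM in WT cTreg libraries. Neither pair of groups overlapped. The log2 fold change of site 16 was -0.83 ± 0.31 (edgeR adjusted p = 0.0379). That call was lost with DESeq2 (adjusted p = 0.148) and without WT cTreg replicate 1 (0.0881), WT cTreg replicate 2 (0.235) or WT eTreg replicate 1 (0.440), where the log2 fold change was -0.43. In Pggt1b-deficient cells the eTreg and cTreg libraries overlapped at both sites: site 15 had 4.48 and 10.1 CPM in eTreg and 10.9 and 9.38 CPM in cTreg libraries, and site 16 had 6.73 and 9.48 CPM in eTreg and 8.75 and 5.52 CPM in cTreg libraries.

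Close to the strongest Nt5e site, site 5 (chr9:88221075-88221192) was a weak site that was higher in Pggt1b-deficient eTreg than in Pggt1b-deficient cTreg cells. It had 5.38 and 4.74 CPM in Pggt1b-deficient eTreg libraries, from 12 and 8 counts, against 0.897 and 1.79 CPM in Pggt1b-deficient cTreg libraries. The groups did not overlap, and the log2 fold change was 1.94 ± 0.60 (edgeR adjusted p = 0.0339). WT eTreg libraries had 2.69 and 2.99 CPM and WT cTreg libraries 1.21 and 2.69 CPM, which was not called. Between eTreg genotypes the log2 fold change was 0.84 ± 0.53, also not called (edgeR adjusted p = 0.336). The call in Pggt1b-deficient cells was lost without Pggt1b-deficient eTreg replicate 1 (adjusted p = 0.168) or 2 (0.0510), without Pggt1b-deficient cTreg replicate 1 (0.222), with only the compared libraries (0.0795) and with halved counts (0.0707).

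**Figure D2:**
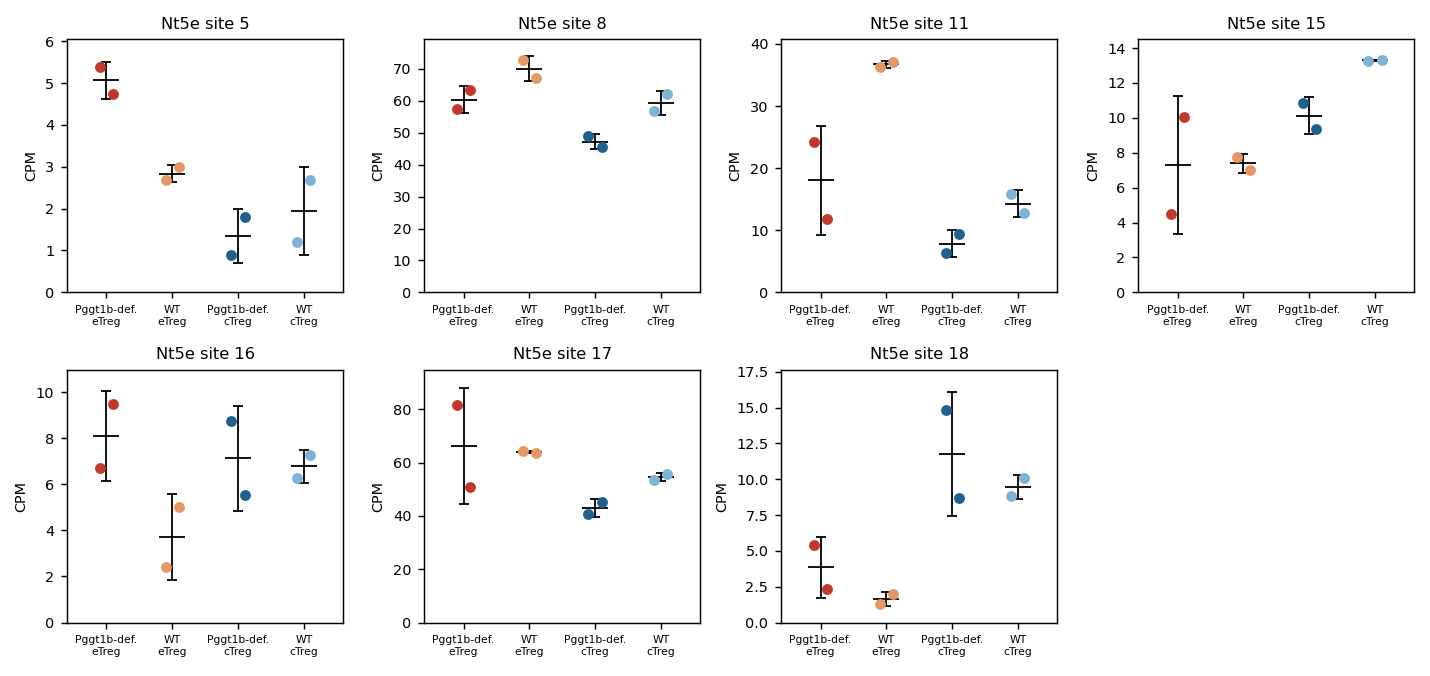
CPM per library (points), with the group mean and SD (bars, n = 2), at the 7 named Nt5e sites in the 4 groups. At site 11 the WT eTreg libraries, at 36.3 and 37.1 CPM, lie above all others, and at site 18 the eTreg libraries lie below the cTreg libraries in both genotypes.

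The Entpd1 window differed between the WT subsets in 1 direction. Of 22 tested sites, 8 were lower and none higher in WT eTreg than in WT cTreg cells (edgeR, adjusted p under 0.05), against the background of 14.9% lower and 13.8% higher. DESeq2 and limma-voom also called 0 sites higher, and 0 sites fitted above 0 had an unadjusted p under 0.05 in edgeR. The median log2 fold change over the 22 sites was -0.46, against 0.00 over all tested sites. DESeq2 called 2 of the sites lower, and leaving out WT eTreg replicate 1 or 2 left 2 or 4 calls, and WT cTreg replicate 1 or 2 left 4 or 1. The fitted values stayed below 0 at all 8 sites when a WT library was left out. They ranged from -0.71 to -0.17 at site 4 and from -0.97 to -0.36 at site 24. At site 8 they ranged from -1.88 to -1.13 and at site 21 from -2.31 to -1.58. They moved less at the others, such as -0.64 to -0.43 at site 13 and -0.55 to -0.38 at site 22. The changes were mostly small, between -0.46 and -0.79 at 6 of the 8 sites. The 8 sites were spread over the window from site 4 to site 24, and the strongest site was not among them.

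Site 5, the strongest Entpd1 site, had 134 and 85.3 CPM in Pggt1b-deficient eTreg, 82.7 and 92.2 CPM in WT eTreg, 104 and 105 CPM in Pggt1b-deficient cTreg and 94.7 and 99.8 CPM in WT cTreg libraries. Only the first Pggt1b-deficient eTreg library stood out. No comparison was called. For eTreg against cTreg the log2 fold change was 0.09, with a 95% interval of -0.15 to 0.34, in Pggt1b-deficient cells and -0.15, with one of -0.35 to 0.05, in WT cells. Between genotypes it was 0.10 (-0.10 to 0.31) in cTreg cells and 0.35 (0.11 to 0.59) in eTreg cells (edgeR adjusted p = 0.0510). The eTreg value turned to -0.047 without Pggt1b-deficient eTreg replicate 1 and reached 0.61 without replicate 2. It thus rested on replicate 1, and replicate 2 lay between the 2 WT eTreg libraries. With RLE scaling the adjusted p of the eTreg value was 0.0399 and with library totals 0.0244.

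Of the 8 sites, site 15 (chr19:40758705-40758902) was the one whose call held under all 17 alternatives. It had 8.99 and 8.82 CPM in WT eTreg libraries, against 15.4 and 15.5 CPM in WT cTreg libraries, or -0.79 ± 0.19 on the log2 scale (edgeR adjusted p = 0.00167). The groups did not overlap. Pggt1b-deficient eTreg libraries had 8.07 and 11.3 CPM, against 14.2 and 14.4 CPM in Pggt1b-deficient cTreg libraries. These groups did not overlap either, but the difference of -0.59 ± 0.29 was not called (edgeR adjusted p = 0.205).

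Entpd1 site 11 (chr19:40735712-40735892) was highest in WT cTreg cells. It had 13.5 and 10.1 CPM in Pggt1b-deficient eTreg libraries and 9.55 and 11.3 CPM in WT eTreg libraries, which overlapped. In cTreg cells it had 9.31 and 8 CPM in Pggt1b-deficient libraries and 16.9 and 16.5 CPM in WT libraries. It was lower in Pggt1b-deficient than in WT cTreg cells, at -0.94 ± 0.21 on the log2 scale (edgeR adjusted p = 0.00826), the one Entpd1 call between cTreg groups, where 1.69% of all tested sites were lower. It was also lower in WT eTreg than in WT cTreg cells (-0.67 ± 0.19, edgeR adjusted p = 0.00774); both comparisons share the WT cTreg libraries. The genotype call was lost without any one of the 4 cTreg libraries: leaving out Pggt1b-deficient cTreg replicate 1 or 2 gave -1.06 ± 0.28 or -0.84 ± 0.26 (adjusted p = 0.0639 or 0.117), and leaving out WT cTreg replicate 1 or 2 gave -0.92 ± 0.27 or -0.96 ± 0.27 (adjusted p = 0.147 or 0.116). The change was thus about as large each time, with a larger SE. The subset call was lost without WT cTreg replicate 1 (-0.67, adjusted p = 0.0762) or 2 (-0.69, 0.0640) or WT eTreg replicate 1 (-0.56, 0.112).

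Among the other Entpd1 sites called between the WT subsets, sites 4, 13, 22 and 24 were the stronger ones. Their WT eTreg libraries lay below the WT cTreg libraries. Site 2, stronger than these but not called, had 36.9 and 36.4 CPM in WT eTreg and 33.6 and 35.2 CPM in WT cTreg libraries. Site 4 (chr19:40663870-40664260) had 20.1 and 18.1 CPM in WT eTreg and 21.4 and 30.9 CPM in WT cTreg libraries (log2 fold change -0.46 ± 0.15, edgeR adjusted p = 0.0194). Site 13 (chr19:40753618-40754081) had 12 and 13.8 CPM in WT eTreg and 19.9 and 17.3 CPM in WT cTreg libraries (-0.52 ± 0.18, edgeR adjusted p = 0.0235). Neither pair of groups overlapped, but at site 4 the WT cTreg libraries lay farther from each other than the lower of them lay from the WT eTreg libraries. Site 22 (chr19:40782643-40783003) had 22.5 and 22.4 CPM in WT eTreg and 29.2 and 32.6 CPM in WT cTreg libraries (-0.46 ± 0.15, edgeR adjusted p = 0.0151). Site 24 (chr19:40811701-40811907) had 6.77 and 10.2 CPM in WT eTreg and 13.7 and 12.7 CPM in WT cTreg libraries (-0.61 ± 0.21, edgeR adjusted p = 0.0269).

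In Pggt1b-deficient cells these 4 sites showed no called difference between subsets. Site 4 had 26.9 and 27.3 CPM in Pggt1b-deficient eTreg and 34.1 and 33.8 CPM in Pggt1b-deficient cTreg libraries, and site 13 had 15.2 and 20.1 CPM in Pggt1b-deficient eTreg and 15.6 and 18.5 CPM in Pggt1b-deficient cTreg libraries. Site 22 had 41.3 and 21.3 CPM in eTreg and 34.4 and 30.9 CPM in cTreg libraries of that genotype. Site 24 had 14.8 and 14.2 CPM in eTreg and 13.1 and 10.5 CPM in cTreg libraries of that genotype, so its eTreg libraries lay above. All 4 calls in the WT were lost with DESeq2, at adjusted p = 0.104, 0.0984, 0.0849 and 0.112 in the order of the sites. Each was also lost without single WT libraries: site 4 without WT cTreg replicate 2 (adjusted p = 0.612, log2 fold change -0.17) or WT eTreg replicate 2 (0.178), and site 13 without any one of the 4 (0.0547 to 0.224). Site 22 lost its call without WT cTreg replicate 2 (0.189), WT eTreg replicate 1 (0.0737) or replicate 2 (0.0887), and site 24 without WT cTreg replicate 1 (0.172), replicate 2 (0.0957) or WT eTreg replicate 1 (0.357, log2 fold change -0.36).

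The 2 largest Entpd1 differences between WT subsets were at weak sites. Site 8 (chr19:40724731-40724812) had 0.927 and 1.56 CPM in WT eTreg and 3.70 and 3.17 CPM in WT cTreg libraries (log2 fold change -1.42 ± 0.46, edgeR adjusted p = 0.0177). Site 21 (chr19:40762156-40762228) had 0.649 and 0.679 CPM in WT eTreg libraries, from 7 and 10 counts, and 2.01 and 3.33 CPM in WT cTreg libraries (-1.98 ± 0.57, edgeR adjusted p = 0.00766). The WT groups did not overlap at either site. Pggt1b-deficient libraries had 2.69 and 0 CPM in eTreg and 2.58 and 2.48 CPM in cTreg cells at site 8, and 0 and 0 CPM in eTreg and 2.47 and 0.828 CPM in cTreg cells at site 21, with no call. The call at site 8 was lost with DESeq2 (adjusted p = 0.0923) and without WT cTreg replicate 1 (0.139), WT cTreg replicate 2 (0.0712) or WT eTreg replicate 1 (0.171). At site 21 it was lost with DESeq2 (0.0779) and without WT cTreg replicate 2 (0.181), WT eTreg replicate 1 (0.0583) or WT eTreg replicate 2 (0.0670).

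Both remaining Entpd1 calls involved Pggt1b-deficient eTreg cells and few counts, at a pair of sites about 2 kb apart. They came from different comparisons. Between eTreg genotypes site 16 was called, and site 19 was not (-1.36 ± 0.83, edgeR adjusted p = 0.313). Between the Pggt1b-deficient subsets site 19 was called, and site 16 was not (1.19 ± 0.48, edgeR adjusted p = 0.111). Site 16 (chr19:40759102-40759182) had 8.52 and 6.52 CPM in Pggt1b-deficient eTreg libraries, from 19 and 11 counts, against 2.41 and 2.04 CPM in WT eTreg libraries. The groups did not overlap, and the log2 fold change was 1.78 ± 0.48 (edgeR adjusted p = 0.0119), the one Entpd1 call between eTreg groups, where 4.66% of all tested sites were higher. Pggt1b-deficient cTreg libraries had 4.82 and 1.66 CPM and WT cTreg libraries 2.74 and 4.12 CPM. The call was lost without Pggt1b-deficient eTreg replicate 1 (adjusted p = 0.144) or WT eTreg replicate 2 (0.0758). Site 19 (chr19:40761165-40761232) had 0.448 and 1.19 CPM in Pggt1b-deficient eTreg libraries, from 1 and 2 counts, against 4.49 and 5.11 CPM in Pggt1b-deficient cTreg libraries. Summed counts were 3 against 77. Scaled by library size with TMM factors, their ratio was 0.161, with an exact 95% interval of 0.0324 to 0.488. That interval covers counting error only and would be wider if counts come in pairs. Site 19 was the one Entpd1 site called between the Pggt1b-deficient subsets, where 4.52% of all tested sites were lower (log2 fold change -2.62 ± 0.74, edgeR adjusted p = 0.0196). WT eTreg libraries had 2.04 and 1.97 CPM and WT cTreg libraries 2.34 and 3.48 CPM. With 7 of its alternatives the site 19 call was lost, among them DESeq2 (adjusted p = 0.0680), limma-voom with group weights (0.154) and the fits without Pggt1b-deficient cTreg replicate 1 (0.0505), Pggt1b-deficient cTreg replicate 2 (0.0565) or Pggt1b-deficient eTreg replicate 1 (0.183).

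**Figure D3:**
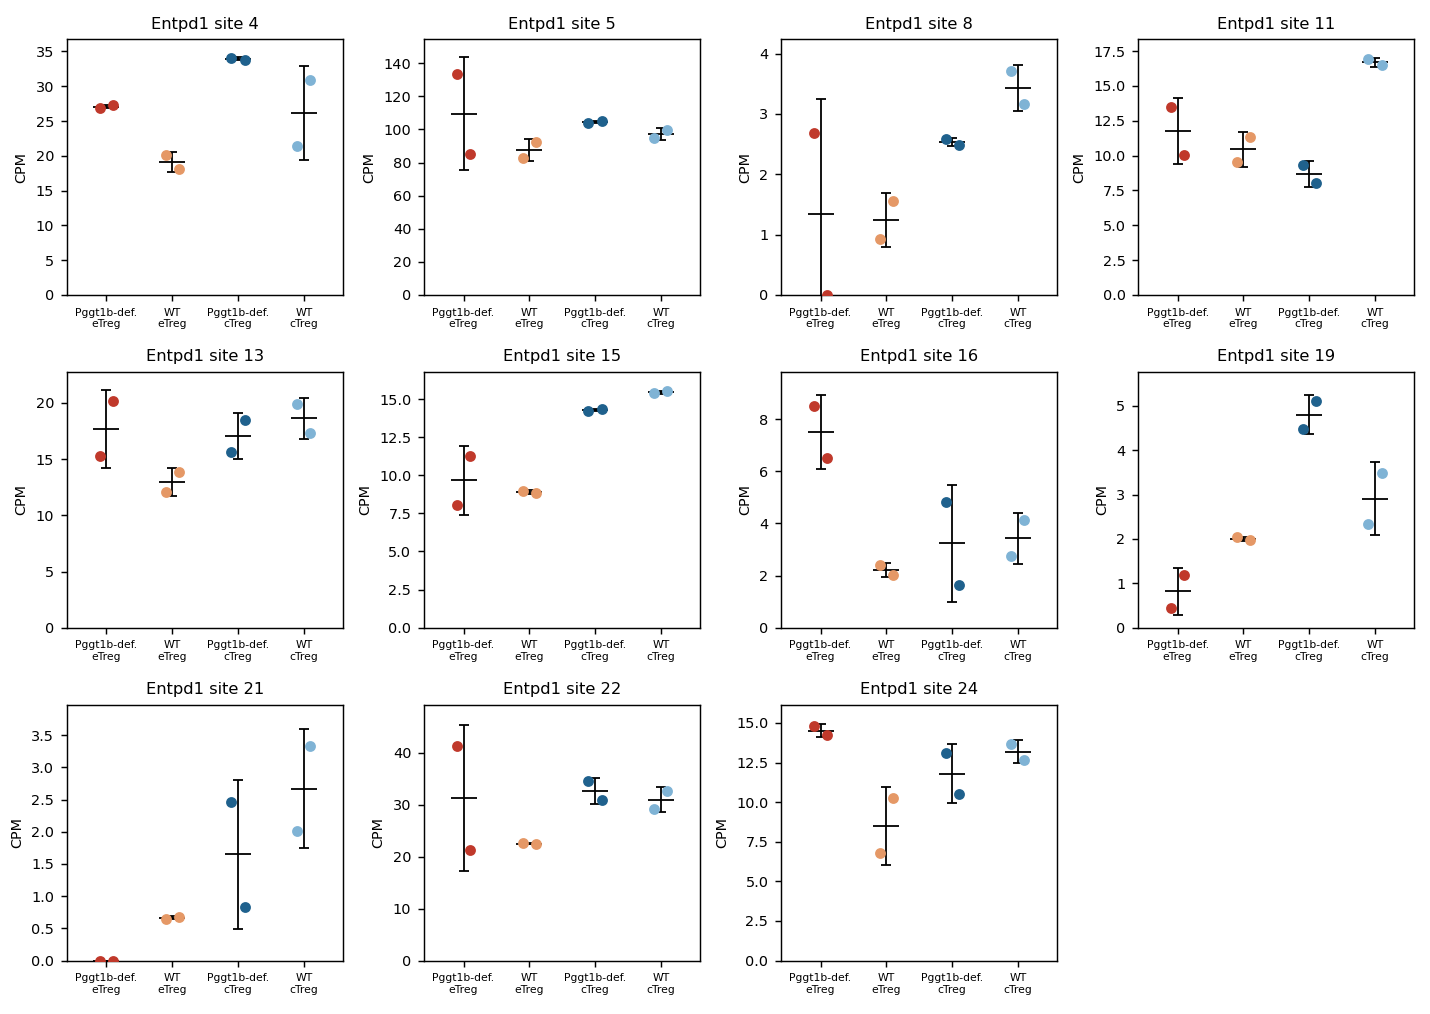
CPM per library (points), with the group mean and SD (bars, n = 2), at the 11 named Entpd1 sites in the 4 groups. At site 15 the WT eTreg libraries, at 8.99 and 8.82 CPM, lie below both cTreg groups, and at site 11 the WT cTreg libraries, at 16.9 and 16.5 CPM, are highest.

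Beyond those calls the fitted Entpd1 values between eTreg groups were mostly above 0. In 17 of 22 sites the fitted value for Pggt1b-deficient against WT eTreg cells was above 0, with a median log2 fold change of 0.28, against -0.09 over all tested sites. This comparison shares the WT eTreg libraries with the WT subset comparison, in which 18 of the 22 fitted values were below 0. In cTreg cells 9 fitted values were above and 13 below 0, with a median of -0.04, against -0.03 over all tested sites. Of those above 0, site 2 had 0.35 ± 0.12 and site 4 had 0.38 ± 0.15, not called (edgeR adjusted p = 0.111 and 0.216). With only the compared libraries, 1 Entpd1 site was called higher and 1 lower between cTreg groups. The same numbers were called without both Pggt1b-deficient eTreg libraries. Between the Pggt1b-deficient subsets 11 fitted values were above and 11 below 0, with a median of 0.01, against -0.06 over all tested sites. The shares of all tested sites above and below 0 are not given here.

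**Figure D4:**
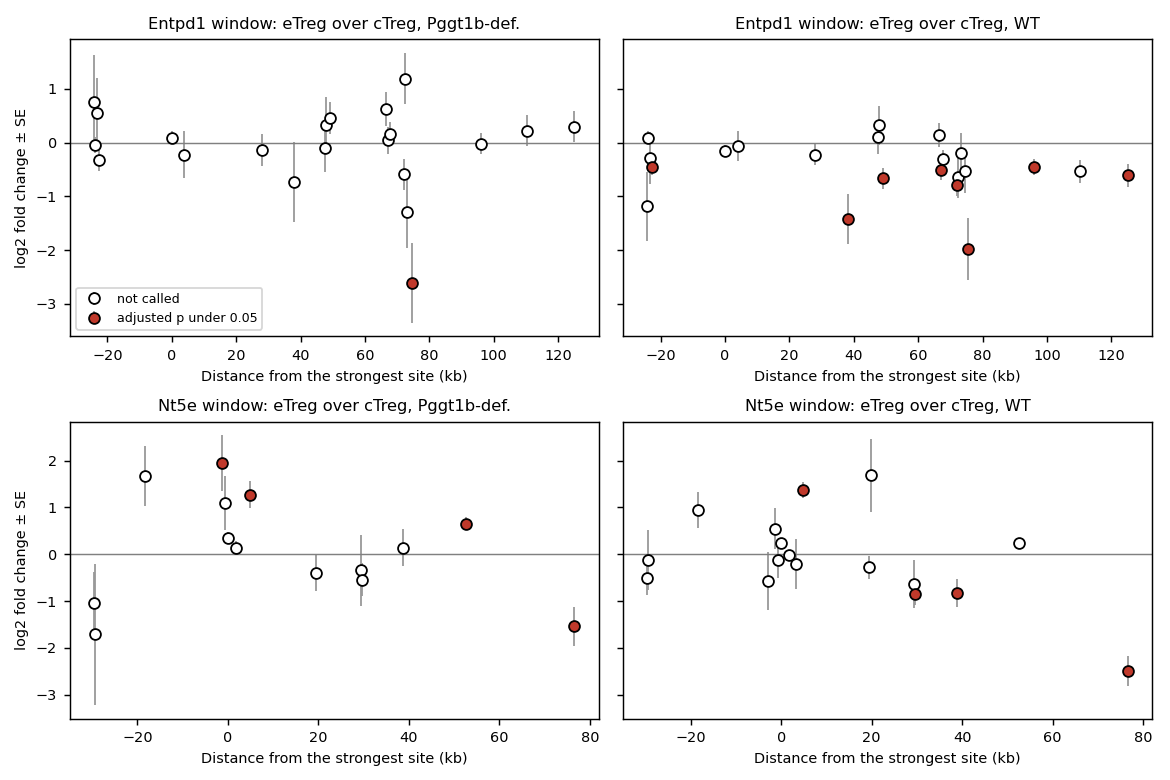
Log2 fold change of eTreg over cTreg (± SE) at tested sites against distance from the strongest site of each window (kb), for Pggt1b-deficient (left) and WT cells (right). Filled points were called, and sites at which a compared group had no count are not drawn. In WT cells 8 Entpd1 sites and 3 Nt5e sites are called below 0, and 1 Nt5e site above 0.

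At 5 of the 42 sites neither Pggt1b-deficient eTreg library had a count: Entpd1 sites 18 and 21 and Nt5e sites 4, 10 and 13. In the other groups these sites averaged 0.293 to 2.67 CPM. The share of all sites without a count in either Pggt1b-deficient eTreg library is not given here. A count of 0 in both libraries allows up to 0.766 CPM (3 counts over the group), and more if counts come in pairs, so a loss from a level near that was not detectable at this depth. None of the 4 that were tested was called in a comparison with Pggt1b-deficient eTreg cells, and no fold is given for them.

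An interaction term compared the effect of Pggt1b loss in eTreg cells with that in cTreg cells. It was called at 0 of 39 tested sites of both windows (edgeR, adjusted p under 0.05), where 1.51% of all tested sites were called, 0.957% higher and 0.555% lower. DESeq2 also called 0, and 8 member sites had an unadjusted p under 0.05 in edgeR. The share of all tested sites under that unadjusted threshold is not given here, so the 8 cannot be read as an excess. The smallest adjusted p was 0.0982, at Entpd1 site 11, where the effect of Pggt1b loss was 1.13 ± 0.36 higher in eTreg than in cTreg cells on the log2 scale. Without Pggt1b-deficient eTreg replicate 2 there were 3 calls, and without Pggt1b-deficient cTreg replicate 1 there was 1.

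**Figure D5:**
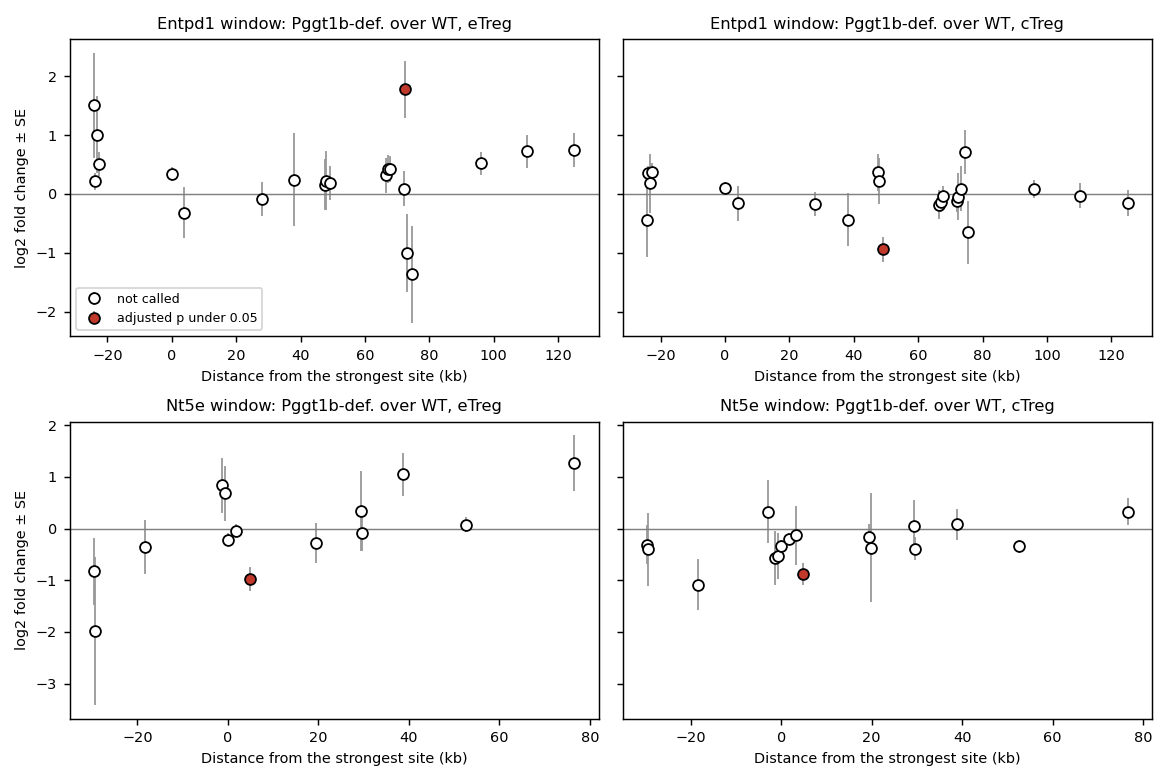
Log2 fold change of Pggt1b-deficient over WT cells (± SE) at tested sites against distance from the strongest site of each window (kb), in eTreg (left) and cTreg cells (right). Filled points were called, and sites at which a compared group had no count are not drawn. Nt5e site 11, at 4.87 kb, is called below 0 in both subsets, at -0.97 and -0.88.

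By the correlation of log2(CPM + 1) over the 8 libraries, the sites elsewhere most like the Nt5e sum were chr5:150998484-150998545 (Pearson r = 0.994), chr14:104866998-104867721 (0.988) and chr5:118426625-118426892 (0.988). Those most like the Entpd1 sum were chr5:124230856-124230931 (0.994), chrX:137066021-137066100 (0.993) and chr3:37142961-37143062 (0.993). They were picked from 50918 sites with a mean of at least 20 counts, of which 641 and 625 had r above 0.9 with the Nt5e and Entpd1 sums. The 8 libraries are those of the sums themselves and share their depth and groups with them.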

How the data were processed

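The submitters' processing notes name, without role or order, Trimmomatic 0.36, Picard 2.9.4, SAMtools, MACS2 2.1.1, bedtools and the mouse build mm9 (NCBIM37). How the authors aligned reads, shifted cut positions, set the peak threshold, pooled libraries or defined a count is not given in these notes or the labels. The authors deposited untransformed whole-number counts for each site, in 8 columns that each match 1 sample title. Coordinates are as deposited, and whether starts count from 0 or 1 is not stated. Of counts from 1 to 10, 66.1% to 77.4% were even, which would follow from counting read pairs as 2.

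Counts were fitted in R 4.3.3 with edgeR 4.0.16: filterByExpr (75352 of 79758 sites), TMM scaling, 1 mean per group over all 8 libraries, quasi-likelihood F tests and Benjamini-Hochberg adjustment over all tested sites. Calls needed an adjusted p under 0.05. A standard error is the size of the log2 fold change divided by the root of F, and 95% intervals use them with the fit's degrees of freedom. The procedure was tested on simulated counts. Named sites are those called in any of the 5 comparisons and the strongest of each window. Sites, lists and motifs were chosen with earlier results of these data known. A list of adenosine pathway genes and marker genes was not analysed here, since no annotation of mm9 was at hand. Promoter sequences are RefSeq's, and matching by symbol found both genes. Alternatives used DESeq2 1.42.0, limma 3.58.1 (voom), other scalings and filters, halved counts, fewer libraries and the replicate number as a block. Figures were drawn with matplotlib 3.10.9. Intervals and floors cover counting error or the spread between libraries only.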

Additional observations from a re-analysis of the deposited data

How the results depend on the processing

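Of 21 called values at named sites, 3 kept their call under all alternatives: Entpd1 site 15, Nt5e site 11 and Nt5e site 18, each for WT eTreg against WT cTreg. Over the 350 pairs of a called value and an alternative, 289 kept the call, 61 lost it and 0 changed direction; the cause was not tested. Where a library was left out, the lone library of its group was assumed to vary like the others. Member sites called for Pggt1b-deficient against WT were 2 in eTreg (1 to 3 without 1 library) and 2 in cTreg cells (0 to 5 without 1 library, 4 with voom, 4 with halved counts, 5 with only the compared libraries and 4 without both Pggt1b-deficient eTreg libraries, an alternative added after seeing the data). For eTreg against cTreg they were 5 in Pggt1b-deficient cells (1 to 5 without 1 library, 3 with voom, 3 with halved counts, 2 with only the compared libraries) and 12 in the WT (4 to 16 without 1 library, 5 with DESeq2). The interaction gave 0 (0 to 3 without 1 library).

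Over all sites the calls for Pggt1b-deficient against WT eTreg cells were 8354, against 4586 with voom, 5340 with only the compared libraries and 4569 to 8133 without 1 library. In cTreg cells they were 1669, against 867 with DESeq2, 2866 with voom, 2913 with halved counts, 3480 with only the compared libraries, 3163 without both Pggt1b-deficient eTreg libraries and 378 to 3112 without 1 library. For eTreg against cTreg they were 6870 in Pggt1b-deficient cells, against 3100 with voom, 4217 with halved counts, 3174 with only the compared libraries and 3161 to 7317 without 1 library. In the WT they were 21599, against 13976 with DESeq2 and 12756 to 26040 without 1 library. The interaction had 1139, against 747 with DESeq2 and 382 to 2035 without 1 library. The share of calls that were higher moved by over 10 points in some fits. It was 42.0% between eTreg genotypes, against 52.7% with DESeq2 and 55.9% with voom. Between cTreg genotypes it was 23.9%, against 34.2% without the low-count filter, 37.5% without both Pggt1b-deficient eTreg libraries, 40.7% with voom, 43.6% with only the compared libraries and 13.0% and 11.5% without WT cTreg replicate 1 or 2. It was 50.4% between the Pggt1b-deficient subsets, against 70.6% with voom. For the interaction it was 63.3%, against 53.1% without the low-count filter, 73.7% with halved counts, 81.3% with voom and 52.8% without Pggt1b-deficient eTreg replicate 2. The interaction uses all libraries, so it has no fit with only the compared ones.

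With the replicate number as a block, member calls stayed at 2, 2, 5, 12 and 0 in the order above, and calls over all sites were 7781, 1569, 6341, 20212 and 1041; same-numbered libraries did not deviate together (r = -0.02 to 0.06). Signs turned for 4 values that were not called. Without 1 library the interaction at Nt5e site 11 lay between -0.76 and 0.28. At Entpd1 site 5, leaving out Pggt1b-deficient eTreg replicate 1 or 2 gave -0.047 or 0.61 for Pggt1b-deficient against WT eTreg, -0.31 or 0.35 for Pggt1b-deficient eTreg against cTreg and -0.15 or 0.50 for the interaction. Without its strongest site the Entpd1 sum averaged 242, 190, 246 and 242 CPM in Pggt1b-deficient eTreg, WT eTreg, Pggt1b-deficient cTreg and WT cTreg cells, and the Nt5e sum 177, 192, 148 and 179 CPM. That Nt5e sum still includes site 11. Depth limits all results with Pggt1b-deficient eTreg cells, whose part was not tested.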
